A study of Mus musculus and Rattus norvegicus with 96 samples.

Results

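Malat1, Neat1 and Kcnq1ot1 are long noncoding RNAs that remain in the cell nucleus. They were taken by name as 3 rows of the 24543 genes in a count table of mouse liver, and their levels were followed through 4 ways of preserving the same livers. All 3 passed the filter on low counts, which 13370 genes passed.

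The study asked how formalin fixation changes RNA sequencing profiles of archived tissue. Livers came from 12 male B6C3F1 mice aged 10 to 11 weeks, of which 6 drank water with 600 ppm phenobarbital (PB) for 7 days and 6 drank water alone (Con). Each liver was divided into 4 preparations, namely frozen tissue (FR), frozen tissue later fixed in 70% ethanol (FR > OH), frozen tissue later put into formalin at 10% (FR > FFPE), and tissue that went into the same formalin without freezing (FFPE), with 18 h in fixative. The 3 fixed preparations were embedded in paraffin, which gave 48 libraries of ribosome-depleted total RNA in 8 groups of n = 6. RNA of FR was extracted with RNAzol and that of the other preparations with a kit for embedded tissue after heating and protease digestion, and fragmentation was shorter for FFPE samples, as the labels put it without naming the ethanol samples, so that these steps cannot be told apart from fixation in any comparison with FR.

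A cell keeps such RNAs in the nucleus instead of exporting them to ribosomes. Malat1 gathers in nuclear speckles, the bodies that store splicing factors, and Neat1 is the scaffold around which paraspeckles form. Kcnq1ot1 is transcribed antisense to the potassium channel gene Kcnq1 from the paternal chromosome only, and it silences imprinted neighbours there, among them the cell cycle inhibitor Cdkn1c. All 3 are largely unspliced, and the long forms of Malat1 and Neat1 lack an ordinary poly(A) tail because RNase P cuts them upstream of a small tRNA-like RNA.

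Malat1 lies on chromosome 19 at 5795690 to 5802672 and Neat1 at 5824708 to 5845480 (RefSeq annotation of GRCm38.p6, minus strand), 22.0 kb apart. In the same annotation Kcnq1ot1 lies on chromosome 7 at 143213111 to 143296547 on the minus strand, a span of 83437 bases, inside the span of Kcnq1, which is on the plus strand. In the GENCODE M21 annotation the full-length transcripts Malat1-201 (6983 bases) and Neat1-201 (20771 bases) each have 1 exon. The short form Neat1-202 has 3004 bases in 2 exons, and Kcnq1ot1-201 has 93092 bases. The Kcnq1ot1 transcript is longer there than its RefSeq span, and levels per kb use the RefSeq spans. The counts are per gene, so reads of the short and long forms of Neat1 were added together.

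The 3′ ends of the 2 neighbours on chromosome 19 are shown because they set how these RNAs end, and a library from total RNA takes them in without a tail. The first sequence is chr19:5795982-5796070 and the second chr19:5824708-5824802, both from the minus strand of GRCm38 in GENCODE M21 and read 5′ to 3′. Capitals mark every run of at least 11 bases that the 2 sequences share.
Malat1-201 before the cleavage site: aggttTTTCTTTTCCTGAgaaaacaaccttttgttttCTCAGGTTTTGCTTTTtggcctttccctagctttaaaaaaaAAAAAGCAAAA
Neat1-201 at its end: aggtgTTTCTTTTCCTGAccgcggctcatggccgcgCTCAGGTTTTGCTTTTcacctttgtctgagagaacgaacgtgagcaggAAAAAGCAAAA
The pair of U-rich runs and the A-rich run are the parts known to fold into a triple helix that protects these ends. On the transcribed strand, the run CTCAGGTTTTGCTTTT occurred in the transcripts of 2 of the 55341 annotated genes, Malat1 and Neat1. The run TTTCTTTTCCTGA occurred in 21 genes and AAAAAGCAAAA in 376.

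The next bases of the Malat1 transcript form mascRNA, the small RNA released by the cut, at chr19:5795924-5795981 (minus strand, RefSeq annotation of GRCm38.p6). The short form of Neat1 ends with an ordinary signal for polyadenylation, given in capitals, at chr19:5842307-5842346 (minus strand, GENCODE M21).
mascRNA: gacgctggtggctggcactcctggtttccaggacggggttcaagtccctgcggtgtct
Neat1-202, last 40 bases: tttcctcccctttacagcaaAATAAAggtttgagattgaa
The count table lists mascRNA as a gene of its own, and its count was 0 in every library. Kcnq1 was listed with 6 to 28 counts per library against 1359 to 5447 for Kcnq1ot1. The library kit keeps the strand, but the strand setting of the counting is not given in the sources used here, so reads of this overlapping pair may have been split in either way.

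Counts on genes ran from 4952797 to 13702672 per library and total reads from 17457987 to 28315340. The share of reads that fell on genes was 46.6% to 51.8% in FR, 34.1% to 45.0% in FR > OH, 31.7% to 40.5% in FR > FFPE and 21.4% to 27.5% in FFPE. A level was therefore expressed in counts-per-million (CPM) units in 2 ways, by the counts on genes of the library and by its total reads, the divisor that the authors used. Moving from the first to the second shifted the median log2 fold change of all genes in FFPE vs. FR from 0.32 to −0.63. The FR > FFPE library of Con mouse 21C stood apart, with the fewest counts on genes (5534973) and the fewest total reads (17457987) of its preparation, and without it no call on the 3 RNAs changed. The treatment labels were checked with Cyp2b10, the liver's classic PB-induced gene, which stood at 0 to 2.45 CPM in the Con libraries and 1078 to 2289 CPM in the PB libraries. Summed hepatocyte markers were 50845 to 100049 CPM in FR and 27219 to 45769 CPM in FFPE. In bulk tissue fewer cells of a type and less RNA per cell cannot be told apart. Neither can be told apart here from the differences in fixation, extraction and fragmentation between FR and FFPE. All marker genes of the 7 cell classes had at least 1 count in some library.

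Malat1 was the most abundant of the 3 RNAs, at 73536 to 179932 counts per library. Per kb of gene span, the median level by counts on genes in FR (n = 12) was 1186 CPM for Malat1, 74.2 CPM for Neat1 and 2.13 CPM for Kcnq1ot1, and in FFPE (n = 12) it was 2672, 200.5 and 5.24 CPM. The spans are 6.98, 20.8 and 83.4 kb. In each preparation every library had more Malat1 than Neat1 and more Neat1 than Kcnq1ot1 per kb.

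**Figure D1:**
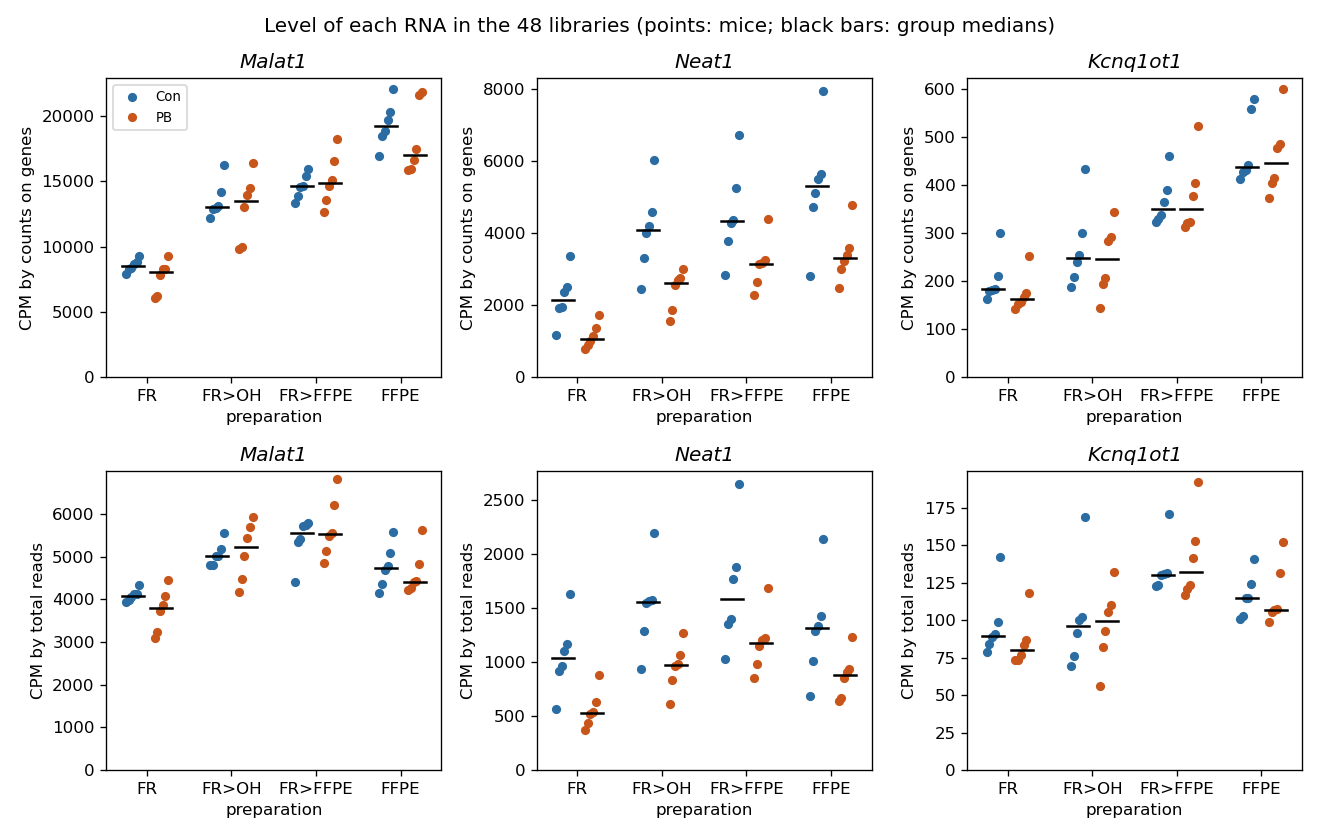
Level of each RNA in CPM by counts on genes (upper row) and by total reads (lower row), for the 4 preparations on the horizontal axis, with Con mice in blue and PB mice in orange. Points are single libraries and black bars are group medians. In the upper row FFPE has the highest medians of all 3 RNAs, and in the lower row FR > FFPE has the highest.

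Malat1 was lowest in frozen tissue. By counts on genes, Con libraries had 7892, 8515 and 9258 CPM (lowest, median and highest) in FR, 12167, 13059 and 16261 CPM in FR > OH, 13342, 14627 and 15944 CPM in FR > FFPE, and 16963, 19266 and 22085 CPM in FFPE. The PB libraries had 6022, 8059 and 9266 CPM in FR, 9848, 13498 and 16415 CPM in FR > OH, 12612, 14891 and 18253 CPM in FR > FFPE, and 15893, 17054 and 21823 CPM in FFPE. On this scale every fixed library of either treatment lay above every FR library, while the 3 fixed preparations overlapped. The share of all genes that separate in this way is not given here. Within mice, FFPE was 2.03 to 2.76 times FR (median 2.33), higher in 12 of 12. Against FR, the log2 fold change of Malat1 was 1.22 (SE 0.0857) for direct formalin, 0.88 (SE 0.0852) for formalin after freezing and 0.71 (SE 0.0849) for ethanol, with edgeR adjusted p of 5.05e-17, 2.58e-12 and 9.91e-10.

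Those rises have to be read against a background in which many genes rose. By counts on genes, 53% of all genes tested were called higher in FFPE than in FR at an adjusted p under 0.05, 56.5% in FR > FFPE and 41.7% in FR > OH. By total reads the same shares were 6.56%, 20.4% and 15.6%. The shares called lower in FFPE were 17.3% by counts on genes and 70.7% by total reads, and with TMM scaling, another choice of divisor, 34.1% were called higher and 31.3% lower. Malat1 was called higher in all 3 comparisons by total reads too, with log2 fold changes of 0.26 (SE 0.0766, adjusted p = 0.00183), 0.50 (SE 0.0767, adjusted p = 3.89e-07) and 0.38 (SE 0.0766, adjusted p = 4.74e-05) in the same order. By total reads, FR held 3097 to 4453 CPM of Malat1 and FFPE 4140 to 5618 CPM, so that 6 of the 12 FFPE libraries were above every FR library. The distance from the median gene hardly depended on the divisor, since Malat1 stood 0.895 above the median log2 fold change of all genes in FFPE vs. FR by counts on genes and 0.89 above it by total reads. In that comparison 7.80% of the genes had a larger fold change than Malat1 by counts on genes.

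Neat1 rose as well, from a lower and more uneven base. By counts on genes, Con libraries had 1178, 2151 and 3377 CPM in FR, 2449, 4093 and 6020 CPM in FR > OH, 2827, 4327 and 6732 CPM in FR > FFPE, and 2800, 5310 and 7939 CPM in FFPE (lowest, median and highest). The PB libraries had 772, 1066 and 1718 CPM in FR, 1560, 2623 and 3007 CPM in FR > OH, 2287, 3155 and 4396 CPM in FR > FFPE, and 2469, 3306 and 4779 CPM in FFPE. Preparations overlapped in their libraries and mice differed widely, but Neat1 was higher in each fixed preparation than in FR of the same mouse. Within mice, FFPE was 2.16 to 3.43 times FR (median 2.71), FR > FFPE 1.81 to 3.16 times (median 2.35) and FR > OH 1.67 to 3.05 times (median 1.91), and each was higher in 12 of 12. The log2 fold changes against FR were 1.42 (SE 0.164), 1.25 (SE 0.164) and 0.98 (SE 0.163) in that order, with edgeR adjusted p of 2.02e-10, 7.04e-09 and 1.58e-06.

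By total reads the Neat1 differences from FR on the log2 scale were 0.47 (SE 0.168, adjusted p = 0.0104), 0.87 (SE 0.169, adjusted p = 2.79e-05) and 0.64 (SE 0.169, adjusted p = 0.00126) for these 3 preparations. Each mouse was again higher in each fixed preparation than in FR. In FFPE vs. FR, Neat1 stood above the median of all genes by 1.09 by counts on genes and by 1.10 by total reads, and 4.58% of the genes had a larger fold change by counts on genes. In FR > FFPE vs. FR the corresponding share was 2.65%.

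Kcnq1ot1 also rose in both formalin preparations and less in ethanol, where its rise was smaller than those of Malat1 and Neat1. By counts on genes, Con libraries had 163, 183 and 299.7 CPM in FR, 188, 247 and 434 CPM in FR > OH, 323, 351 and 461 CPM in FR > FFPE, and 412, 437 and 580.0 CPM in FFPE. The PB libraries had 143, 162 and 253 CPM in FR, 143, 245 and 343 CPM in FR > OH, 313, 350.3 and 524 CPM in FR > FFPE, and 372, 446 and 599.5 CPM in FFPE. On this scale formalin libraries, frozen first or not, were all above every FR library, whereas those of FR > OH overlapped with FR. The share of all genes that separate in this way is not given here. By edgeR, Kcnq1ot1 changed against FR by 1.31 (SE 0.128, adjusted p = 1.71e-12) for direct formalin, 0.98 (SE 0.127, adjusted p = 5.46e-09) for formalin after freezing and 0.45 (SE 0.127, adjusted p = 0.00251) for ethanol on the log2 scale.

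By total reads Kcnq1ot1 was higher than in FR by 0.36 in FFPE (SE 0.121, adjusted p = 0.0071) and by 0.60 in FR > FFPE (SE 0.121, adjusted p = 4.82e-05) on the log2 scale. For FR > OH the value was 0.12 (SE 0.121, adjusted p = 0.424), higher in 9 of 12 mice, so that the call in ethanol rested on the divisor. By total reads, FFPE was higher than FR in 11 of 12 mice and FR > FFPE in 12 of 12. Both formalin preparations then overlapped with FR, with 1 of 12 FFPE and 3 of 12 FR > FFPE libraries above every FR library. The ethanol and the formalin arm of frozen tissue were also compared directly. Kcnq1ot1 was higher in FR > FFPE than in FR > OH by 0.53 (SE 0.127, adjusted p = 0.00191) by counts on genes and by 0.48 (SE 0.121, adjusted p = 0.00708) by total reads, and it was higher in 12 of 12 mice on both scales. In that comparison 20.4% of all genes were called higher by counts on genes and 9.16% by total reads, and 3.84% of the genes had a larger fold change than Kcnq1ot1.

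For Malat1 and Neat1 the comparison of formalin with ethanol after freezing gave no call. The values were 0.17 (SE 0.0845, adjusted p = 0.157) for Malat1 and 0.27 (SE 0.161, adjusted p = 0.238) for Neat1 by counts on genes, each higher in FR > FFPE in 10 of 12 mice. With the mouse as a block in the fit both passed, at 0.18 (adjusted p = 5.41e-04) for Malat1 and 0.27 (adjusted p = 7.76e-06) for Neat1. The median of all genes was itself at 0.13 by counts on genes without the block, with Malat1 0.03 and Neat1 0.14 above it. In that fit 43.1% of the genes had a larger fold change than Malat1 and 23.2% a larger one than Neat1. The share of all genes called with the block is not given here. By total reads and with the block, Neat1 passed at 0.22 (adjusted p = 0.00112) and Malat1 did not, at 0.12 (adjusted p = 0.0523).

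Freezing before formalin was the comparison in which the divisor set the direction for all 3 RNAs. By counts on genes the log2 fold change of FFPE vs. FR > FFPE was 0.34 (SE 0.0846, adjusted p = 0.0019) for Malat1, 0.17 (SE 0.161, adjusted p = 0.477) for Neat1 and 0.33 (SE 0.126, adjusted p = 0.0452) for Kcnq1ot1. By total reads it was −0.24 (adjusted p = 0.00481), −0.40 (adjusted p = 0.0276) and −0.24 (adjusted p = 0.0584), and Neat1 was lower in FFPE in 12 of 12 mice. The background turned in the same way, as 11.8% of all genes were called higher in FFPE by counts on genes and 82.4% were called lower by total reads. Relative to the median of all genes, whose own log2 fold change was −0.02 and −0.585 on the 2 scales, the 3 RNAs were higher by 0.355, 0.185 and 0.344 by counts on genes and by 0.349, 0.187 and 0.341 by total reads. With the mouse as a block, Neat1 was called higher by counts on genes, at 0.16 (adjusted p = 0.0044). The share of all genes called with the block is not given here. Without the block, 24% of the genes had a larger fold change than Neat1 by counts on genes.

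**Figure D2:**
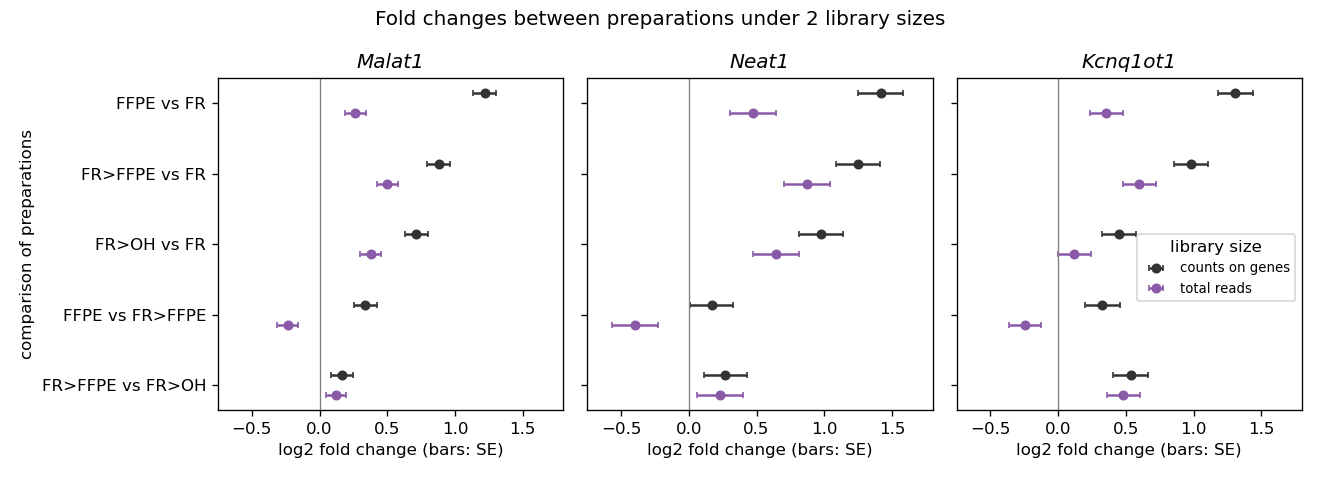
Log2 fold changes (horizontal axis) of the 3 RNAs in the 5 comparisons of preparations (vertical axis), from the edgeR fit to 48 libraries, with SE as bars. Black points use counts on genes as the library size and purple points total reads. All points of the comparisons with FR are above 0 on both scales, and FFPE vs. FR > FFPE changes sign.

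The libraries were run in lanes numbered L1 to L5 in their names, and preparations were not spread evenly over them. Lane L2 held FR libraries of 8 mice and FFPE libraries of 2 PB mice. In it, by counts on genes, Malat1 was at 7892 to 9266 CPM in FR and at 16603 and 17505 CPM in FFPE, without overlap. The share of all genes that separate in this way is not given here. By total reads the same FFPE libraries, at 4272 and 4435 CPM, lay within the FR range of that lane, 3944 to 4453 CPM. With lane as a term in a fit of FR and FFPE alone, the log2 fold changes of FFPE vs. FR were 1.00 for Malat1, 2.03 for Neat1 and 1.58 for Kcnq1ot1, with edgeR adjusted p of 5.84e-05, 1.04e-05 and 2.68e-06. That fit does not pair mice, and the only lane with both preparations held FR of PB mice 18B and 18D and FFPE of PB mice 75C and 80B, so lane and mouse cannot be told apart in it. The same-mouse log2 differences of 75C and 80B were 1.08 and 1.46 for Malat1, 1.40 and 1.48 for Neat1, and 1.24 and 1.54 for Kcnq1ot1. FR > FFPE libraries of Con mice were all in L3 and those of PB mice all in L4, so for them lane and treatment cannot be told apart.

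A ratio of 2 RNAs within a library is free of any divisor. Neat1 counts were 14.3% to 40.3% of Malat1 counts in FR Con (median 25.0%) and 8.33% to 28.5% in FR PB (median 15.3%). The ratio of Neat1 to Malat1 was higher than in FR of the same mouse in 12 of 12 mice in FR > OH, by 0.29 ± 0.17 on the log2 scale (SD, n = 12), and in 12 of 12 in FR > FFPE, by 0.39 ± 0.18. In FFPE it was higher by 0.21 ± 0.21, in 11 of 12 mice. The exact two-sided sign-flip permutation test over mice, with Holm adjustment over 9 tests, gave p = 0.00439, 0.00439 and 0.0332, of which the first 2 come from the smallest p it allows for 12 mice, 4.88e-04. Neat1 thus gained on Malat1 in each fixed preparation.

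The ethanol preparation set Kcnq1ot1 apart. Kcnq1ot1 counts were 1.65% to 3.46% of Malat1 counts in FR and 0.989% to 3.38% in FR > OH, and within mice the log2 ratio fell by 0.29 ± 0.20 in 12 of 12 (exact permutation test, Holm adjusted p = 0.00439). In FR > FFPE and FFPE it was 0.11 ± 0.13 and 0.10 ± 0.13 above FR, each in 11 of 12 mice, and neither passed (exact permutation test, adjusted p = 0.0513 for both). Mouse 8C was the exception in FR > FFPE and FFPE. Against Neat1, Kcnq1ot1 fell by 0.575 ± 0.22 in FR > OH in 12 of 12 mice and fell by 0.28 ± 0.20 in FR > FFPE in 10 of 12 (exact permutation test, adjusted p = 0.00439 and 0.0122). In FFPE this ratio was at −0.11 ± 0.22, lower in 8 of 12 (exact permutation test, adjusted p = 0.113). The 3 preparations share the FR libraries of the ratio, so their values are not independent.

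**Figure D3:**
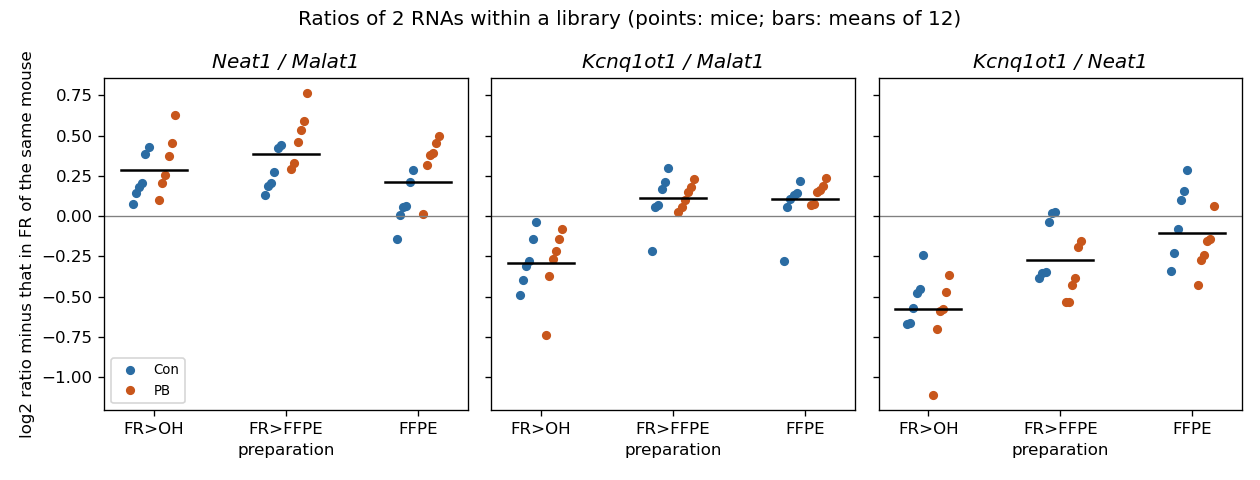
Log2 ratio of 2 RNAs in a library minus that ratio in FR of the same mouse (vertical axis), for 3 preparations and 3 pairs, with Con mice in blue, PB mice in orange and black bars for the means of 12 mice. Neat1 / Malat1 is above 0 for all mice in FR > OH and FR > FFPE, and both Kcnq1ot1 ratios are below 0 for all mice in FR > OH.

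PB treatment was associated with less Neat1. In FR the PB mice had a median of 1066 CPM of Neat1 and the Con mice one of 2151 CPM, and 5 of 6 Con mice lay above every PB mouse, the exception being 82B. The log2 fold change of PB vs. Con was −0.95 (SE 0.23, adjusted p = 0.0042) in FR, −0.77 (SE 0.229, adjusted p = 0.02) in FR > OH, −0.63 (SE 0.229, adjusted p = 0.0895) in FFPE and −0.53 (SE 0.228, adjusted p = 0.18) in FR > FFPE by edgeR. Neat1 was thus called lower in 2 of 4 preparations, where 2.6% and 3.78% of all genes were called lower; in FFPE and FR > FFPE the shares were 1.98% and 0.987%. By total reads the call in FR remained (−0.91, adjusted p = 0.0105) and that in FR > OH was just missed (−0.67, adjusted p = 0.0503), where 1.84% and 1.85% of all genes were called lower.

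Whether this response depended on the preparation was tested as an interaction, and no member passed. For Neat1 the difference of the response from that in FR was 0.18 in FR > OH, 0.32 in FFPE and 0.42 in FR > FFPE on the log2 scale (adjusted p = 1 for each by edgeR). The 4 libraries of a mouse are not independent, so Neat1 was also averaged over them on the log2 scale. By counts on genes, Con mice then had 2186 to 5741 CPM (median 3808) and PB mice 1615 to 3227 CPM (median 2249), with 5 Con mice above every PB mouse. By total reads the difference was −0.64 (unadjusted exact permutation p = 0.0281) and with TMM −0.725 (unadjusted exact permutation p = 0.0173). On each of these scales 4 Con mice were above every PB mouse. By counts on genes the difference was −0.70 (SE 0.231, n = 6 per group, p = 0.0152 by an exact two-sided permutation test, not adjusted for the 3 RNAs tested), and without any 1 mouse in turn it was −0.85 to −0.57 with exact p of 0.00433 to 0.0303. In lane L2, the FR libraries of 2 PB mice had 772 and 879 CPM against 1178 to 3377 CPM in the 6 Con mice. PB mice 75C and 80B, whose FR libraries overlapped with that Con range at 1364 and 1718 CPM, were in L3. In lane L5 of FR > OH the 6 PB mice had 1560 to 3007 CPM against 3310 to 6020 CPM in 3 Con mice. Con mouse 82B, within that PB range at 2449 CPM in FR > OH, was in L4. In lane L1 of FFPE the treatments overlapped, with 2469 to 3389 CPM in 4 PB mice and 2800 to 7939 CPM in 6 Con mice.

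Malat1 and Kcnq1ot1 showed no such difference beyond the spread between mice. Their log2 fold changes of PB vs. Con ran from −0.16 to 0.05 for Malat1 (SE 0.12) and from −0.22 to 0.04 for Kcnq1ot1 (SE 0.178 to 0.179) over the 4 preparations, and no adjusted p was under 0.487. Averaged per mouse, the differences were −0.08 (SE 0.0942, unadjusted exact permutation p = 0.407, n = 6 per group) and −0.10 (SE 0.162, unadjusted exact permutation p = 0.545, n = 6 per group). As a ratio to Malat1 within the library, the Neat1 difference between PB and Con in FR was −0.76 on the log2 scale (fold 0.590), which did not pass after Holm adjustment over 12 ratio tests (unadjusted exact permutation p = 0.0455, adjusted 0.476). The smallest p that 6 mice against 6 allow is 0.00216.

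**Figure D4:**
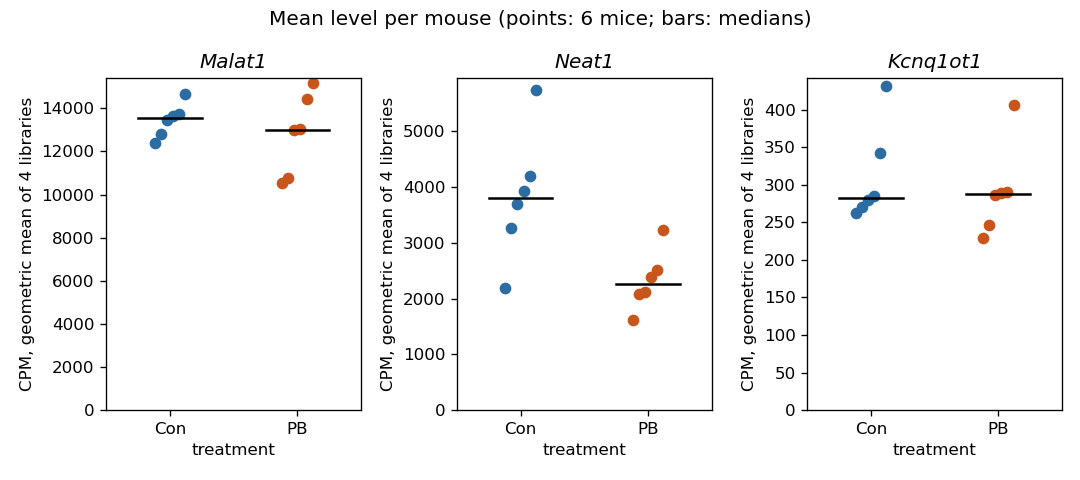
Mean level per mouse in CPM by counts on genes (vertical axis, geometric mean of the 4 libraries of a mouse) in Con and PB mice. Points are 6 mice per treatment and black bars are medians. For Neat1, 5 Con mice lie above every PB mouse, and for Malat1 and Kcnq1ot1 the treatments overlap.

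The mice with the most and the least Neat1 were the same in each preparation. Neat1 was highest in mouse 90C and lowest in 82B among the Con mice in 4 of 4 preparations, with 3377 and 1178 CPM in FR and 7939 and 2800 CPM in FFPE. Among the PB mice it was highest in 80B and lowest in 18B in 4 of 4, with 1718 and 772 CPM in FR and 4779 and 2469 CPM in FFPE. The same 4 mice took these places by total reads. Kcnq1ot1 was highest in 8C among Con mice and in 75C among PB mice in 4 of 4 preparations by counts on genes, at 299.7 and 253 CPM in FR, and by total reads this remained for 75C. The lowest Con mouse for Kcnq1ot1 was another one in each preparation, and PB mouse 20D went from rank 2 in FR to rank 6 in FFPE. The mice with the highest Neat1 were thus other mice than those with the highest Kcnq1ot1.

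The spread between mice was small for Malat1 beside the other 2. The SD of log2(CPM + 0.5) within groups, pooled over the 8 groups, was 0.19 for Malat1, 0.318 for Kcnq1ot1 and 0.416 for Neat1, beside a median of 0.185 over 7953 genes with a mean of at least 10 CPM. Malat1 was near the middle of these genes, with 46.5% of them more variable. For Kcnq1ot1 the share was 10.3% and for Neat1 5.09%. Among groups, the SD of Malat1 was lowest in FR Con, at 0.0798, and highest in FR > OH PB, at 0.30.

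**Figure D5:**
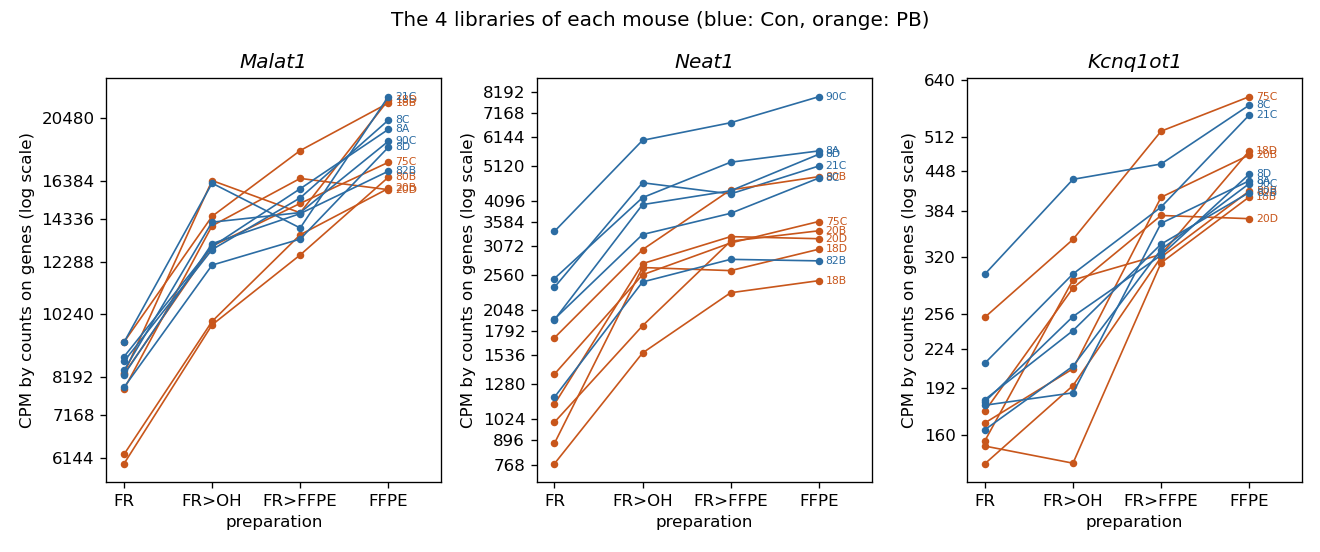
The 4 libraries of each mouse joined by a line, in CPM by counts on genes on a log scale (vertical axis) over the preparations (horizontal axis), with Con mice in blue, PB mice in orange and the mouse named at the right. Neat1 keeps 90C on top and 18B at the bottom throughout, and the lines of Malat1 cross more.

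Proteins that build the bodies in which Malat1 and Neat1 reside were followed through their mRNAs. Of 22 nuclear speckle proteins, 18 were called higher and 1 lower in FFPE vs. FR by counts on genes, beside 53% and 17.3% of all genes. Their median log2 fold change was 0.63 beside 0.32 over all genes. The speckle scaffold Srrm2 rose by 1.28 (adjusted p = 1.96e-18) and the RNA-binding speckle protein Son by 0.80, while the splicing factor subunit Sf3b1 was at 0.06 (adjusted p = 0.259). By total reads 4 of the 22 were called higher and 15 lower (median −0.32, all genes −0.63), beside 6.56% and 70.7% of all genes. On that scale Srrm2 rose by 0.33 and Son fell by 0.16.

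Of 33 paraspeckle proteins, 25 were called higher and 5 lower in FFPE vs. FR by counts on genes (median 0.54), beside 53% and 17.3% of all genes. By total reads 4 were called higher and 21 lower (median −0.40), beside 6.56% and 70.7% of all genes. The core paraspeckle proteins Sfpq, Nono and Pspc1, RNA-binding partners that coat Neat1, rose by 0.83, 0.27 and 0.60 by counts on genes. By total reads Nono and Pspc1 fell by 0.68 and 0.35, and Sfpq was at −0.13 (adjusted p = 0.0616). Hnrnpf and Hnrnpk, which bind RNA in many nuclear steps, fell on both scales, by 0.32 and 0.19 by counts on genes. For PB vs. Con in FR 0 of the 33 were called, beside 5.85% of all genes called higher and 2.6% lower, and their median log2 fold change was −0.03.

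Of the 16 genes listed for the imprinted cluster of Kcnq1ot1, 10 passed the filter, and 5 were called higher and 2 lower in FFPE vs. FR by counts on genes, beside 53% and 17.3% of all genes. By total reads 0 were called higher and 8 lower, beside 6.56% and 70.7%. Kcnq1 rose by 0.86 in FFPE by counts on genes (adjusted p = 9.55e-05) at a mean of 1.81 CPM, and by total reads it was at −0.10 (adjusted p = 0.637). Cdkn1c, at a mean of 0.757 CPM, was at 0.15 by counts on genes (adjusted p = 0.643) and fell by 0.78 by total reads (adjusted p = 0.0101). The solute carrier Slc22a18 fell by 0.75 by counts on genes and the membrane protein Cd81 fell by 0.33, while Dhcr7, an enzyme of cholesterol synthesis, rose by 0.46. By total reads Slc22a18 fell by 1.695, Cd81 fell by 1.28 and Dhcr7 fell by 0.49.

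Most other long noncoding RNAs of the nucleus were called higher by counts on genes. Of 18 listed, 13 passed the filter, and 11 were called higher in FFPE vs. FR by counts on genes and none lower (median 0.92). Over all genes 53% were called higher and 17.3% lower, with a median of 0.32. By total reads 4 were called higher and 4 lower, beside 6.56% and 70.7% of all genes. Firre, which helps to organise chromosomes in the nucleus, rose by 1.73 and by 0.77 on the 2 scales, Snhg11 by 2.03 and 1.08, and Tug1 rose by 0.61 by counts on genes but fell by 0.34 by total reads. In PB vs. Con in FR 4 of the 13 were called higher, beside 5.85% of all genes, and none lower, namely Meg3 (1.59), Rian (2.21), Airn (1.10) and Snhg11 (1.03), of which the first 3 were chosen after their values were seen. Of 11 host genes of small nucleolar RNAs, 4 were called higher and 1 lower in FFPE vs. FR by counts on genes, beside 53% and 17.3% of all genes, and by total reads 1 was called higher and 8 lower, beside 6.56% and 70.7%. Gas5, one of them, rose by 0.40 by counts on genes and fell by 0.56 by total reads.

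Markers of other liver cells moved beside these changes, and their part in them was not tested. In FFPE vs. FR by counts on genes, 0 of 8 hepatocyte markers were called higher and 7 lower, 0 and 6 of 7 Kupffer cell markers, 0 and 4 of 6 stellate cell markers, 2 and 0 of 6 endothelial markers, 2 and 1 of 5 bile duct markers and 0 and 4 of 5 red blood cell markers. Of the 6 lymphocyte markers 1 passed the filter and was not called. Over all genes 53% were called higher and 17.3% lower. By total reads no marker was called higher, and 8 of 8 hepatocyte, 7 of 7 Kupffer cell, 6 of 6 stellate cell, 6 of 6 endothelial, 2 of 5 bile duct and 5 of 5 red blood cell markers and the lymphocyte marker were called lower, beside 70.7% of all genes. In PB vs. Con in FR, no Kupffer cell, endothelial, stellate cell, bile duct or red blood cell marker was called. Of the hepatocyte markers 1 was called higher and 1 lower. Over all genes 5.85% were called higher and 2.6% lower in that comparison, so lists this short would hold few calls in any case. Summed Kupffer cell markers were 193 to 321 CPM in FR Con and 215 to 411 CPM in FR PB.

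Genes with the most similar pattern were sought among 7953 genes by Pearson correlation of log2(CPM + 0.5) over the 48 libraries, which share mice, lanes and the drop in gene counts with fixation, so the values describe these libraries only. For Malat1 they were Tnrc6b (r = 0.969), Tom1l2 (0.967), Luc7l2 (0.958), Rbm33 (0.956) and Srcap (0.955). For Neat1 they were Irf2bp2 (r = 0.912), F830016B08Rik (0.870), Sgsm2 (0.869), Cgnl1 (0.868) and Zfp36l2 (0.867), and for Kcnq1ot1 they were 6820431F20Rik (r = 0.926), Sec16a (0.916), Tbrg3 (0.908), Zfp329 (0.903) and Cdk12 (0.901). After the mean of each preparation was removed, these coefficients were 0.586 to 0.829. Between the 3 RNAs the coefficient was 0.685 for Neat1 with Malat1, 0.811 for Kcnq1ot1 with Malat1 and 0.638 for Kcnq1ot1 with Neat1, and without the preparation means it was 0.0811, 0.269 and 0.173. All 3 coefficients were thus lower within preparations than across them.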

How the data were processed

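Per the submitters' processing notes, base calls were made with CASAVA 1.8.2 and reads were aligned to GRCm38 with STAR 2.5.3a and handled in Partek. The deposited table holds estimated counts per gene that the authors did not normalize, of which 92.2% were whole numbers, and these were rounded. A second deposited table holds the authors' log2 CPM for 13370 genes, and the total reads of each library were recovered from the ratio of the 2 tables. The strand setting of the counting is not given in the sources used here.

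Genes with a geometric mean above 1 (offset 1e-04) were kept. The main test was the quasi-likelihood test of edgeR 4.0.16 (R 4.3.3) with 8 group means, library size equal to the sum of counts on genes, and Benjamini-Hochberg adjustment over 13370 genes at 0.05. A contrast of preparations is the mean of its values in Con and in PB mice. Any adjusted p without another name comes from this test. Alternatives were total reads as library size, TMM, DESeq2 1.42.0, limma 3.58.1 on the deposited log2 CPM, other filters, lane as a term, and leaving out a mouse or library. Mice carry their names in the sample titles, which pairs the 4 libraries of a mouse. Over 4443 genes the deviations of same-mouse libraries from their group means correlated at 0.573 or more in 72 of 72 pairs (median 0.792). Replicates differed by more than sampling noise, with a chi-square per degree of freedom of at least 6.96 in 120 pairs. Ratios and averages per mouse were tested by exact permutation. The edgeR test of FFPE vs. FR was checked on simulated counts. These were drawn independently for each library, whereas the libraries of a mouse were correlated here.

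The members and gene lists were chosen with earlier results of these data known. Named genes were the 3 RNAs, genes among the 3 most abundant of a list, Kcnq1, Cdkn1c, Sfpq, Nono and Pspc1, and the 5 genes most correlated with each RNA among those of at least 10 CPM. Marker lists are given as counts. Sequences were read from GENCODE M21 transcripts and RefSeq positions. A further gene list is not reported here.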

Additional observations from a re-analysis of the deposited data

Results flagged for a closer look

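In 2 of 24 groups of 6 libraries, 1 library stood farther from the others than Dixon's 95% limit allows, and chance does this in about 1 in 20 groups. Kcnq1ot1 in FR was at 299.7 CPM in Con mouse 8C, with the next mouse at 211.6 CPM and the lowest at 163 CPM. In the FR libraries of PB mice it was at 253.2 CPM in mouse 75C, with the next at 175.4 CPM and the lowest at 143 CPM. By counts on genes both mice were also the highest of their treatment for Kcnq1ot1 in the other 3 preparations.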

How the results depend on the processing

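Of 450 alternative values for 51 comparisons, 425 were counted as unchanged. For tests this means that no call was made or lost, and that no called value changed sign. Values called on neither side were counted as unchanged whatever their sign. Mean levels were counted as unchanged if they moved by less than their SD over the 48 libraries. For Kcnq1ot1 in FR > OH vs. FR (0.45) the call was lost with total reads as library size (0.12), TMM (0.26), DESeq2 size factors (0.25), the DESeq2 test (0.25), limma on the deposited log2 CPM (0.09), and total reads with the replicate block (0.10). In FFPE vs. FR > FFPE the sign turned with total reads, with limma and with total reads plus the replicate block, to −0.24, −0.24 and −0.24 for Malat1, −0.40, −0.41 and −0.41 for Neat1, and −0.24, −0.24 and −0.24 for Kcnq1ot1, whose call was also lost without a filter on low counts (0.33). The turn follows from the divisor, since the share of reads on genes was lowest in FFPE. The mouse as a replicate block made calls of Neat1 in FFPE vs. FR > FFPE (0.16) and of Malat1 (0.18) and Neat1 (0.27) in FR > FFPE vs. FR > OH, the last also with total reads (0.22), and it changed no other call. Neat1 in PB vs. Con in FR > OH missed the threshold with total reads (−0.67) and limma (−0.66). The mean over 48 libraries moved with total reads from 13765 to 4807 CPM for Malat1, from 3280 to 1144 CPM for Neat1 and from 321.5 to 111.3 CPM for Kcnq1ot1. The block with total reads, the averages per mouse and the values without single mice were chosen after seeing the data. Where the divisor did not set the change, the cause was not tested.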
